A study of Mus musculus with 2 samples.

Results

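Imprinted genes are expressed mainly from the copy inherited from a parent of one sex. The 40 genes described here are classical members of 17 imprinted clusters of the mouse genome, 33 protein-coding and 7 noncoding by the GENCODE annotation, against 21938 protein-coding genes in all. They were chosen as textbook imprinted genes and not by a threshold on the maps, but with earlier results of these data known. All 40 were matched to a gene model. The material was whole lung of newborn mice (postnatal age 0 days) of the strain B6NCrl, with no treatment named in the labels. Accessibility was assayed by DNase-seq, which sequences the ends that the enzyme DNase I cuts in nuclei, and cuts gather where nucleosomes give way to bound factors. The series holds 1 group of 2 biological replicates. The labels list separate biosamples under a shared donor entry and do not record sex, so whether these were different animals or pools is not known.

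At an imprinted cluster, a control region carries DNA methylation on the copy from one parent, set in the egg or the sperm and kept in the embryo by the zinc finger protein ZFP57 and its partner TRIM28. The unmethylated copy can act as the promoter of a long noncoding RNA that silences neighbours in cis, as at Kcnq1ot1 and Airn, or as an insulator bound by CTCF, as between H19 and Igf2. Many imprinted genes regulate fetal growth, and several are imprinted mainly in brain or placenta. The maps add up both parental copies and the strain is inbred, so no value below belongs to one copy. The parental origin given for each gene is textbook knowledge and was not measured.

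Each replicate has a deposited list of 150 bp peaks with a score that has no stated unit, and of wider hotspots. The files list 276892 peaks for replicate 1 (scores 2 to 150) and 188726 for replicate 2 (scores 1 to 148). The files and labels used here give no read depth. Overlapping peaks were merged into 290376 sites. A site with at least 1 peak from each replicate is called shared, which applied to 161051 (55.5%). Another 107276 held replicate 1 peaks alone and 22049 replicate 2 peaks alone. The tissue label was checked with marker genes. Shared promoter sites were present at 7 of 8 lung genes, Scgb1a1 having only a replicate 1 peak, and at 1 of 4 liver, 2 of 4 neuronal, 0 of 4 trophoblast and 0 of 3 pancreas genes. With 1 group there is no contrast and no test. Shares and medians of the imprinted genes are therefore given beside those of all genes, as a description. In whole tissue, fewer cells with an open site and a weaker site in each cell cannot be told apart.

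The H19 control region lies upstream of H19 on chromosome 7 and holds several CTCF sites on textbook maps. It carried 3 shared sites, at chr7:142580236-142580385, chr7:142580656-142580825 and chr7:142581716-142581885 (mm10), centred 2167, 2597 and 3657 bp upstream of the H19 start. Their sequences are shown because each holds the CTCF core GGNGGCAG, in capitals. They are read from GRCm38 on the minus strand, the strand of H19.
H19 ICR, 2167 bp upstream: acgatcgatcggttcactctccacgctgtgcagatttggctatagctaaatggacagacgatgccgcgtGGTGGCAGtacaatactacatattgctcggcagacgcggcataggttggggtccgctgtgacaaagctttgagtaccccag
H19 ICR, 2597 bp upstream: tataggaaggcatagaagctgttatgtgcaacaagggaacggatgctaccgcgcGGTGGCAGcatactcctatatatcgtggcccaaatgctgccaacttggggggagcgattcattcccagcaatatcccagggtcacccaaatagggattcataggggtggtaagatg
H19 ICR, 3657 bp upstream: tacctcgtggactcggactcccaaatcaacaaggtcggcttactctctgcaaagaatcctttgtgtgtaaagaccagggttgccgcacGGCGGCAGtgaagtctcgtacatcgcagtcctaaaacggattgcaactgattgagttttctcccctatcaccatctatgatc
All 3 copies of the core read in the same direction, 2 as GGTGGCAG and 1 as GGCGGCAG. Only the site 2167 bp upstream also matched the longer, degenerate CTCF consensus that is used for other regions below. Among 120866 shared distal sites, those over 1000 bp from any annotated transcription start site (TSS), 7.57% held the core. The core was written in the form known from H19. Its presence at this locus was therefore likely from the start and is no separate support. The sites had scores of 54, 59 and 60 in replicate 1 and 38, 46 and 55 in replicate 2. The medians of all peaks were 50 and 43 in those lists, so the 3 sites were of middling strength.

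The first intron of Peg3 carried the other repeated motif. Peg3 encodes a zinc finger protein expressed from the paternal copy, and its control region spans the promoter and reaches into an intron with an array of sites for YY1, a zinc finger factor. There were 4 shared sites 841 to 2501 bp downstream of the Peg3 start. They lay at chr7:6729516-6729665, chr7:6728656-6728885, chr7:6728316-6728545 and chr7:6727856-6728005. Only the first lies in the window around the Peg3 start that is counted as its control region further below. The sequences are from the minus strand of GRCm38, the strand of Peg3, with the YY1 motif CGCCATNTT in capitals.
Peg3 intron, 841 bp downstream: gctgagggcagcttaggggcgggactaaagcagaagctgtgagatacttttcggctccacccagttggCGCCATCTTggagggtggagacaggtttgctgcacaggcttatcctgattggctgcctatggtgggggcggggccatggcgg
Peg3 intron, 1661 bp downstream: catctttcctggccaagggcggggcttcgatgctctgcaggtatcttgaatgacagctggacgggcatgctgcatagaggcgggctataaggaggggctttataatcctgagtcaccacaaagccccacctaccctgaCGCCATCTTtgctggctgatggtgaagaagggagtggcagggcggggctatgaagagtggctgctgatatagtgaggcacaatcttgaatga
Peg3 intron, 2001 bp downstream: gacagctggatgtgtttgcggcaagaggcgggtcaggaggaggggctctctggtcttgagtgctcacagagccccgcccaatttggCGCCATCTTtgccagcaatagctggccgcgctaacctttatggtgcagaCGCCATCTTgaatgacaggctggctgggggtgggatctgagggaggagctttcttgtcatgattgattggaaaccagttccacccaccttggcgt
Peg3 intron, 2501 bp downstream: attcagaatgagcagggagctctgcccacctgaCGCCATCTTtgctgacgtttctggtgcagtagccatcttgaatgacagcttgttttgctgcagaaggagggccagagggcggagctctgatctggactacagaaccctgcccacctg
Each site held the motif, with 5 copies in all, and all 5 read CGCCATCTT on the Peg3 strand. Of the 508 shared sites within 50 kb of the imprinted genes, 8 held CGCCATNTT, the 4 in Peg3 included, against 0.556% of the 161051 shared sites in the genome. This long form was chosen after the matches were seen. The shorter CCATNTT, which it contains, was in all 4 sites, with 6 copies, and in 8.5% of shared sites in the genome. From top to bottom, the sites scored 113, 130, 127 and 126 in replicate 1 and 95, 106, 104 and 89 in replicate 2. In replicate 1, 3 of the 4 stood above 121, the median score of the strongest promoter site of open protein-coding genes. In replicate 2, where that median was 101, the middle pair stood above it. The site at chr7:6728656-6728885 was the strongest shared distal site of the Peg3 cluster.

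Other control regions held the hexamer TGCCGC, which ZFP57 binds when it is methylated. The sites below are shown because they hold it, in capitals, counted on both strands. The KvDMR1 site, within Kcnq1ot1, lies at chr7:143295656-143295865 and scored 74 and 43. The Snrpn site, at the inner Snrpn promoter, lies at chr7:60005036-60005225 and scored 51 and 32. Both are printed from the minus strand. The sites in the IG-DMR, the control region between Dlk1 and Meg3, lie at chr12:109527556-109527725 and chr12:109528296-109528445 and are printed from the plus strand.
KvDMR1, 789 bp downstream of the Kcnq1ot1 start: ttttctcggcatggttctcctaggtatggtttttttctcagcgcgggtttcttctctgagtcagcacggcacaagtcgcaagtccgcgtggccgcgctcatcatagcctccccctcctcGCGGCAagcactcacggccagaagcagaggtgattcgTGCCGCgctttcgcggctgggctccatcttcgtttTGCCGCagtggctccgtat
Snrpn, 19 bp upstream of the inner start: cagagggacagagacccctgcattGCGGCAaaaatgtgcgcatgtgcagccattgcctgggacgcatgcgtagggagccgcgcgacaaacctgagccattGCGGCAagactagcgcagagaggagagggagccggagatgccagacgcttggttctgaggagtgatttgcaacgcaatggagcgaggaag
IG-DMR, 13361 bp upstream of the Meg3 start: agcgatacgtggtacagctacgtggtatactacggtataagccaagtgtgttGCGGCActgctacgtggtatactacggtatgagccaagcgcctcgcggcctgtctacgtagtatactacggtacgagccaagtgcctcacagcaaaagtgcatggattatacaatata
IG-DMR, 12631 bp upstream of the Meg3 start: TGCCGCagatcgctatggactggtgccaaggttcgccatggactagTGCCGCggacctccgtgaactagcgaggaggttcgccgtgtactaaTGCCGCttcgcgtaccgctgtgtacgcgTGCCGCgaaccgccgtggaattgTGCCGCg
The KvDMR1 site held 3 copies and the Snrpn site shown 2. Another shared site of the Snrpn control region, at chr7:60004316-60004465 (30 and 24), also held 2 copies and is not printed. The IG-DMR site farther upstream was shared (scores 63 and 50) and held 1 copy. The nearer site held 5 copies in 150 bp but was a peak in replicate 1 alone, with a score of 47.

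The Peg13 promoter and the Meg3 transcription unit held matches to the longer CTCF consensus, a degenerate motif in capitals below. Peg13 is a paternally expressed noncoding RNA inside Trappc9, and its sites are printed from the minus strand, at chr15:72809956-72810105 and chr15:72810276-72810425. The Meg3 site is printed from the plus strand, at chr12:109542996-109543205.
Peg13, 294 bp downstream: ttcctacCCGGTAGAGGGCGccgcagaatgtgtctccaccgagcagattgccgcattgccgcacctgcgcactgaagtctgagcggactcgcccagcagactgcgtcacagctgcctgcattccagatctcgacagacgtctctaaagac
Peg13, 26 bp upstream: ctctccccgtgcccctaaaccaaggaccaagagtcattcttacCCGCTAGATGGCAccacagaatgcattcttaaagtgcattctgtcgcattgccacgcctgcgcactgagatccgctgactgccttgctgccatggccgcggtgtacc
Meg3, 2099 bp downstream: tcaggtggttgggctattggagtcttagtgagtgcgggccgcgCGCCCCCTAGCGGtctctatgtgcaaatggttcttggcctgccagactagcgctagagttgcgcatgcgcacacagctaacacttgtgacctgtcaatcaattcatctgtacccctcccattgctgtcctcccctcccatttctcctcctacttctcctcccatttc
The Peg13 sites scored 111 and 98 in replicate 1 and 82 and 79 in replicate 2. The Peg13 site 294 bp downstream also held 2 copies of TGCCGC. The Meg3 site scored 91 and 65, above the Meg3 promoter itself in both replicates. Of the 344 shared distal sites within 50 kb of imprinted genes, 23 (6.69%) held the consensus, against 5.16% of all shared distal sites. The share near imprinted genes was thus near the background.

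**Figure D1:**
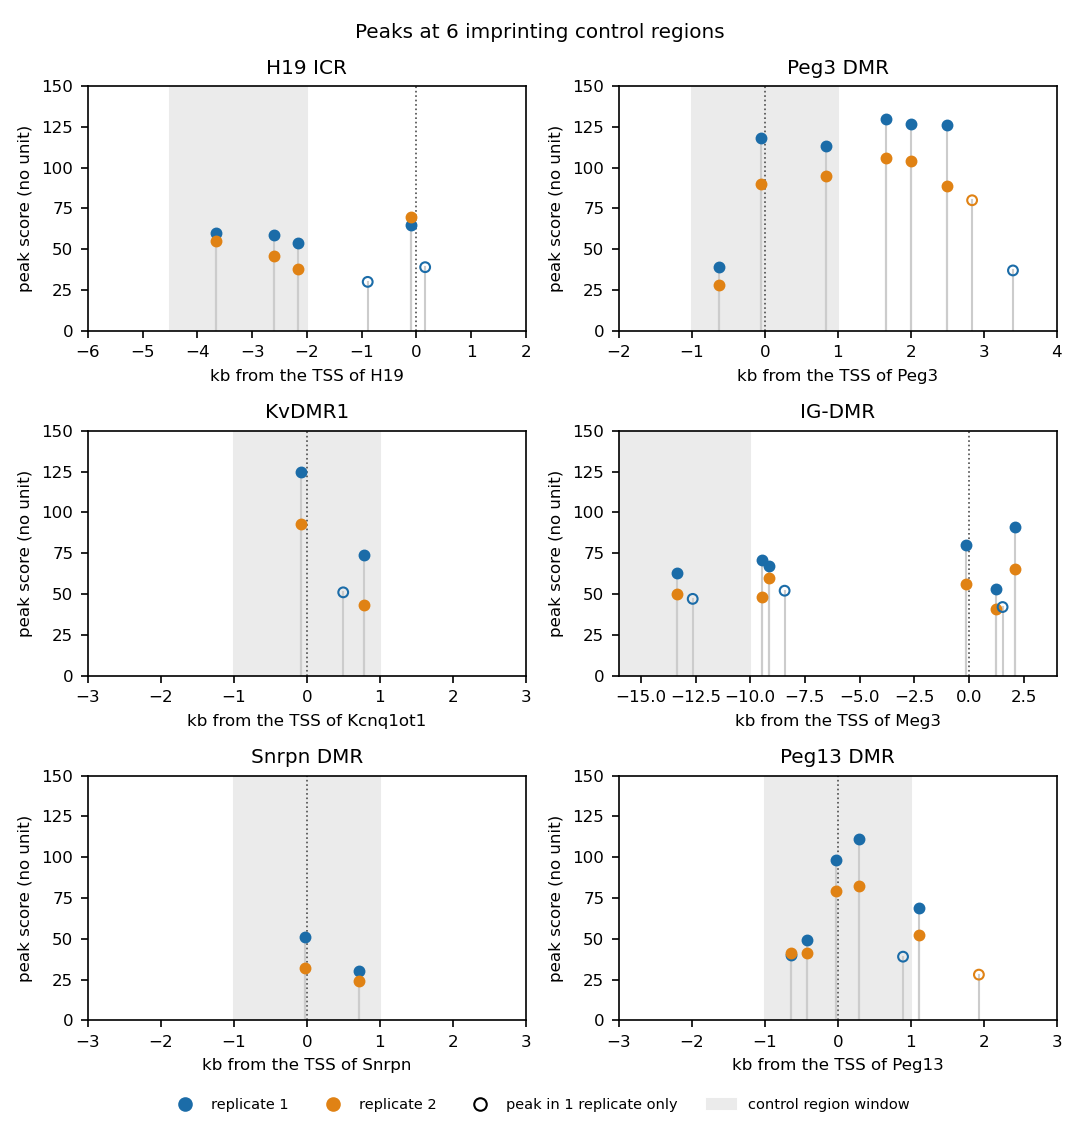
Peaks around 6 imprinting control regions, with distance from the TSS of the named gene in kb on the horizontal axis and peak score on the vertical axis (filled points, sites shared by both replicates; open points, peaks of 1 replicate; grey bands, windows taken as the control region). The H19 control region shows 3 shared sites with scores of 38 to 60, and Peg3 shows 4 stronger sites downstream of its start.

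Across the genome, 18 control regions were placed by textbook position. Those that coincide with a promoter were taken as 1000 bp on each side of the TSS, and the other 4 as a window upstream of the gene. A shared site was present in 16 of 18. All 14 regions methylated on the maternal copy, those placed at a promoter, had one, against 70.7% of protein-coding genes with a shared site within 1000 bp of any TSS. The 14 windows were each placed at a chosen start, in some genes an inner one, and the protein-coding genes were not matched to them. Several of their sites are also the strongest promoter sites of imprinted genes, counted again below. Of the 4 methylated on the paternal copy, 2 had a shared site, the H19 control region and the IG-DMR. Since the 14 were placed at promoters and the 4 were not, methylated parent and position cannot be told apart in these counts. In the Rasgrf1 region, 28000 to 32000 bp upstream of the gene, replicate 1 alone had a peak, with a score of 54. In the Zdbf2 window neither replicate had a peak. Hotspots, which carry a −log10 q-value of at most 100, gave the same 16 regions. The best hotspot reached 100 in 15 of the 16 in replicate 1 and in 12 of the 16 in replicate 2. The lowest values were those of the IG-DMR, 2.46 and 1.40, and in replicate 2 Nnat (1.49), Snrpn (1.85) and the H19 control region (5.70) were also under 100.

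The shared sites of the control regions numbered 34. TGCCGC was present in 11 of them (32.4%), against 12.2% of the 29976 shared promoter sites in the genome. At least 2 copies were present in 6 (17.6%), against 1.28%. The 2 sets differ in position. The promoter sites are centred within 500 bp of a TSS, while the control region windows reach 1000 bp or lie upstream. The 3 sites of the H19 control region, 2 of them with the hexamer, and the 1 shared site of the IG-DMR, also with it, are distal. The median site was 170 bp wide in both groups, and the median number of CpG dinucleotides in the 500 bp around a site was 23.5 in the control regions and 28 at all promoter sites. Promoter sites with TGCCGC had a median of 41 CpG. The part of CpG number in the shares was not tested. In 500 bp windows around the sites, 52.9% of control region sites and 27.6% of promoter sites held it. The 11 sites were spread over 9 regions, and outside the control regions 2 of 24 member promoter sites held the hexamer. Sites in the same region are neighbours and are not independent. TGCCGC was searched as the motif of ZFP57, which is known for its part at control regions. A higher share there was therefore likely from the start and is no separate support.

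**Figure D2:**
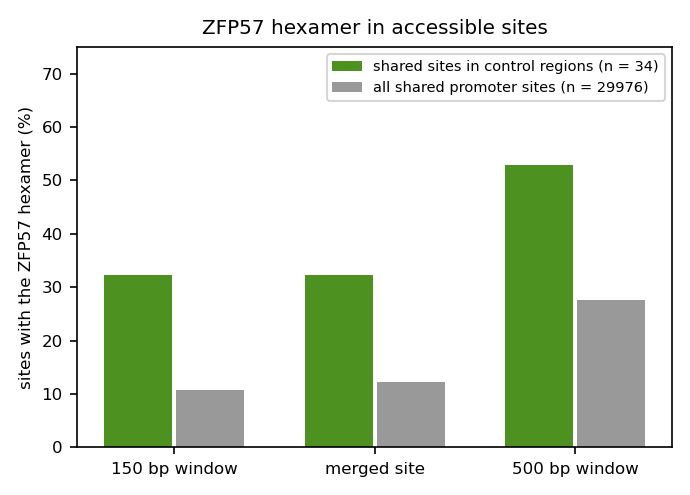
Percentage of sites holding the ZFP57 hexamer on either strand (vertical axis) in 34 shared control region sites (green) and 29976 shared promoter sites (grey), searched in 150 bp around the centre, in the merged site and in 500 bp. In the merged site the share was 32.4% in control regions and 12.2% at all promoters.

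Promoters of the imprinted genes were mostly open. In 36 of 40 genes, some TSS had a shared site no more than 500 bp away, 30 of 33 protein-coding and 6 of 7 noncoding. Over all protein-coding genes this share was 68.5%, and over all 9930 noncoding genes of the same annotation types it was 31.8%. The imprinted genes have more annotated starts (median 4.5) than protein-coding genes in all (median 3), and each start is a further chance of a site. When the outermost 5′ end alone counted as start, 30 of 40 had a shared site, against 63% of protein-coding genes. The genes without one were Rian, the host of small nucleolar RNAs in the Meg3 cluster, Ndn, which encodes the MAGE family protein necdin, Kcnk9, a potassium channel gene imprinted in brain, and Magel2, another MAGE family gene. Magel2 had a replicate 1 peak with a score of 47, and the other 3 had no promoter peak in either replicate.

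Open imprinted promoters ranked low among open promoters. The median score of their strongest site was 100 in replicate 1 and 73.5 in replicate 2 (n = 36), against 121 and 101 for the 15032 open protein-coding promoters. Ranked within that set by mean rank over both lists, the imprinted promoters had a median percentile of 26.5. There were 14 in the bottom 20%, 2 in the top 20% and 6 above the median. Their CpG number was close to that of other promoters, with a median of 35.5 in 500 bp against 36 for all open protein-coding promoters. The best hotspot within 500 bp of any TSS had the highest −log10 q-value, 100, in 35 of the 36 genes in replicate 1 and 26 in replicate 2. Of all single hotspots, distal ones included, 39.5% and 36.2% reached it. A best value per gene is not like a single hotspot, and the same share over other open promoters was not computed. The exception in replicate 1 was Zdbf2 (1.60). The 36 genes have 34 distinct sites, since Peg3 and Usp29 share one, as do Peg10 and Sgce.

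**Figure D3:**
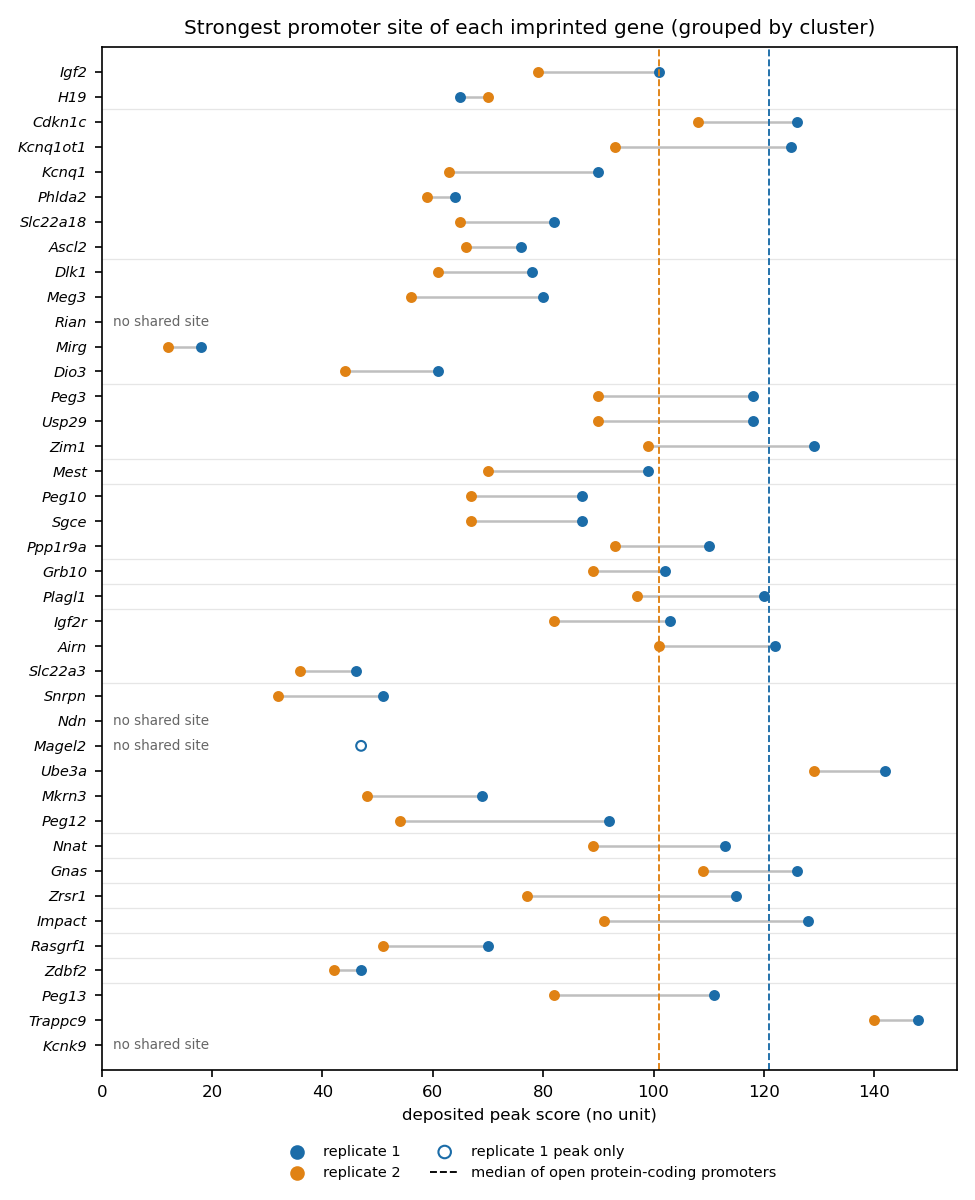
Score of the strongest shared promoter site of each of the 40 imprinted genes in replicate 1 (blue) and replicate 2 (orange), in cluster order, with dashed lines at the medians of all open protein-coding promoters (121 and 101). Trappc9 and Ube3a stand highest, Mirg lowest, and 4 genes have no shared site.

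By the parental copy usually expressed, 20 of 22 paternally expressed genes and 15 of 17 maternally expressed genes had a shared promoter site. The median percentile was 26.5 for the paternally expressed (4.56 to 50.6) and 20.3 for the maternally expressed (0.146 to 99.97). The ranges overlapped, and the highest paternally expressed promoter, that of Airn, stood at the middle of all open promoters. Both genes in the top 20%, Trappc9 and Ube3a, are classed as maternally expressed, and both are known to be imprinted mainly in brain. Kcnk9, also imprinted in brain, had no promoter peak. Imprinting in lung was not measured, and its relation to rank was not tested. Gnas, with transcripts from either copy, was kept apart. The class is that of the gene, and its strongest site need not be a promoter of that copy. Grb10, classed as maternally expressed, was ranked by a site in its control region, which is methylated on the maternal copy.

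**Figure D4:**
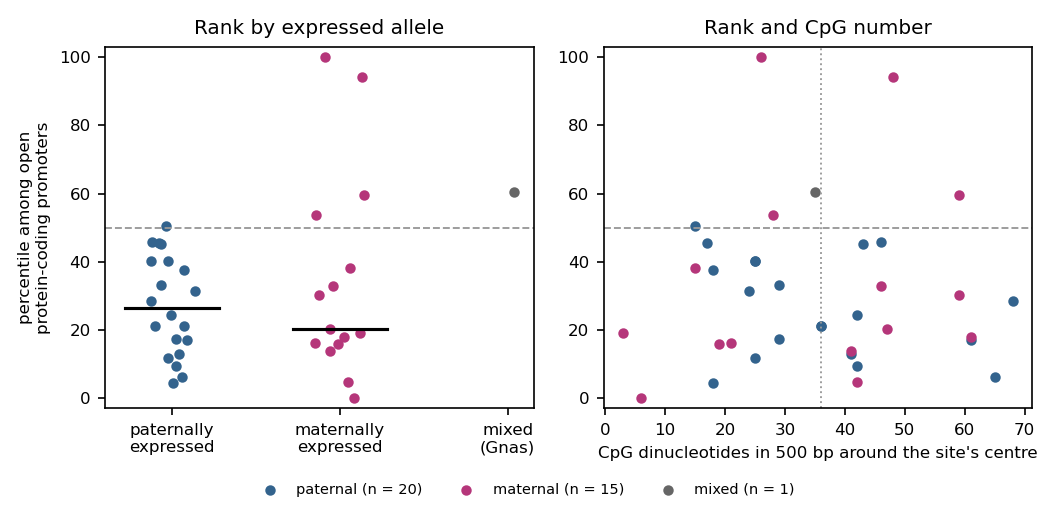
Percentile of the strongest promoter site among 15032 open protein-coding promoters, by expressed copy (left, bars at medians) and against the CpG number in 500 bp (right, dotted line at the median of 36 over all open protein-coding promoters). Of 36 genes, 6 lie above the dashed line at the 50th percentile.

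In the H19-Igf2 cluster, Igf2, the paternally expressed fetal growth factor, had 5 shared promoter sites. The strongest, at chr7:142659356-142659545, scored 101 and 79 and lay at a start 7327 bp inside the gene model, and within 500 bp of a start of the antisense gene Igf2os. H19, a maternally expressed noncoding RNA, had 1 shared promoter site, with scores of 65 and 70. It was the only imprinted promoter with the higher score in replicate 2. Both genes are best known from fetal tissues of mesodermal and endodermal origin, and both promoters were below the median of open promoters here. Downstream of H19, shared sites with the CTCF consensus lay in an intron of Nctc1 (62 and 55) and in an intron of Mrpl23 (80 and 54). Among shared distal sites the strongest lay between genes at chr7:142675776-142675925, 3683 bp from an Ins2 start, and scored 90 and 67. Ins2 itself, an insulin gene imprinted in yolk sac, had no promoter peak.

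In the Kcnq1ot1 cluster, all 6 genes had a shared promoter site. Cdkn1c, a cyclin-dependent kinase inhibitor that restrains growth, had the strongest of them, with scores of 126 and 108 and a percentile of 59.7. Kcnq1ot1, the silencing noncoding RNA, scored 125 and 93 (percentile 45.7). The maternally expressed neighbours were lower. Slc22a18, a transporter gene, scored 82 and 65, and Kcnq1, a potassium channel gene, 90 and 63 at a site with the CTCF consensus. Ascl2, a transcription factor gene of placenta, scored 76 and 66, and Phlda2, which restrains placental growth, 64 and 59. All 4 fell near or within the lowest 20% of open promoters, at percentiles of 13.8 to 20.3. Upstream of Cdkn1c, shared sites with the CTCF consensus lay 3040 bp (79 and 69) and 5430 bp (85 and 69) from its start. The strongest shared distal site, at chr7:143314056-143314205 in an intron, scored 111 and 81.

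The Dlk1-Dio3 cluster on chromosome 12 had weaker promoters. Dlk1, a paternally expressed Notch-like protein of progenitor cells, scored 78 and 61, and Meg3, a maternally expressed noncoding RNA, 80 and 56. Dio3, the deiodinase that inactivates thyroid hormones, scored 61 and 44. Mirg, host of a cluster of microRNAs, had the weakest shared promoter site of all 40 genes, with scores of 18 and 12, next to an inner start 18139 bp into the gene model. Its replicate peaks were also the farthest apart, with centres 120 bp from each other against a median of 20 bp over the 36 genes. All 4 open promoters stood at a percentile of 17.2 or lower. Between the IG-DMR window and Meg3, a pair of shared sites lay 9451 bp (71 and 48) and 9161 bp (67 and 60) upstream of the Meg3 start. The cluster's strongest distal site, shared and at chr12:109495136-109495465 in an intron, scored 96 and 77.

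At the Peg3 cluster, Peg3 and Usp29, a ubiquitin protease gene transcribed the opposite way, shared a promoter site with scores of 118 and 90 (percentile 40.2). Zim1, a maternally expressed zinc finger gene, had a stronger one, with scores of 129 and 99 (percentile 53.6). Zim2 and Zim3, imprinted neighbours, had no promoter peak. At Peg10, a gene derived from a retrotransposon, and Sgce, which encodes a sarcoglycan, the shared site scored 87 and 67. Ppp1r9a, which encodes the actin-binding protein neurabin, had its strongest site at an inner start 207742 bp into the gene (110 and 93). The strongest shared distal site of the Peg10-Sgce cluster lay in an intron at chr6:4749196-4749345, 1864 bp from a Peg10 start, and scored 123 and 92. This was above the Peg10 promoter in both replicates.

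In the Igf2r-Airn cluster, Igf2r, the maternally expressed receptor that clears IGF2, scored 103 and 82 (percentile 30.4). Airn, the paternally expressed RNA that starts inside Igf2r and silences it, scored 122 and 101 (percentile 50.6), above Igf2r in both replicates. Slc22a3, a cation transporter gene of the same cluster imprinted in placenta, scored 46 and 36, among the 3 weakest. In another cluster, Grb10, an adaptor that restrains insulin signalling, had its strongest site at an inner start 12359 bp into the gene (102 and 89), in its control region. Plagl1, a zinc finger gene of a growth network, scored 120 and 97 at a start 30208 bp into the gene. The strongest shared distal sites were intronic in all 3 clusters. They scored 114 and 89 at chr17:12903716-12903865, 114 and 100 at chr11:11973456-11973625 in Grb10, and 97 and 72 at chr10:13087336-13087485 in Plagl1.

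The Snrpn-Ube3a cluster had the lowest density of shared sites of the 17 clusters, 2.58 per 100 kb. Ube3a, a ubiquitin ligase gene imprinted in neurons, had scores of 142 and 129 (percentile 94.3). The paternally expressed genes of the cluster scored lower. Snrpn, a splicing protein gene, scored 51 and 32 at the inner start it shares with Snurf, 135108 bp into the gene model, and no shared site lay at its upstream end. Mkrn3, a ring finger gene, scored 69 and 48, at a site with 1 copy of the YY1 motif CGCCATNTT. Peg12, of the Frat family, scored 92 and 54. Ndn lacked a promoter peak but had a shared site 1691 bp from its start, in an exon, with scores of 75 and 50. Of the 10 shared distal sites of the cluster, 4 held the CTCF consensus, among them the strongest, at chr7:62400256-62400425 (77 and 71). The share was 6.69% near all imprinted genes together and 5.16% over all shared distal sites. This count of few sites was singled out after the values were seen.

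At the Gnas locus, which makes the stimulatory G protein subunit and other products from separate promoters, 8 shared promoter sites were counted. The strongest, at chr2:174329616-174329785, scored 126 and 109 (percentile 60.5) and lay by a start 45686 bp into the gene model. The exon 1A control region had shared sites with scores of 107 and 91 and of 98 and 79. The Nespas promoter, the other control region of the locus, scored 81 and 67. The upstream end of the gene model, where the maternally expressed Nesp transcript starts, scored 55 and 38 at a site with the CTCF consensus. Over 1000 bp from any TSS, the strongest shared site, at chr2:174312256-174312405, scored 98 and 91.

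Trappc9, which encodes a subunit of a trafficking complex, had the strongest imprinted promoter, with scores of 148 and 140 (percentile 99.97). Peg13, inside one of its introns, scored 111 and 82, and Kcnk9 beside them had no promoter peak. The strongest shared distal site near any imprinted gene by within-list rank also lay in that cluster. It was at chr15:73067536-73067725, 6426 bp from a Trappc9 start, and scored 144 and 128. Within the cluster, promoter scores thus ran from the top of the range to no peak.

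Each of the remaining genes is the only one of the 40 in its cluster. Mest, a hydrolase gene, scored 99 and 70 at a start 14503 bp into the gene model. Nnat, which encodes a proteolipid of neurons and lies within Blcap, scored 113 and 89, and its control region at the 5′ end 45 and 34. Zrsr1, an intronless copy of an X-linked splicing factor gene, scored 115 and 77; how reads that match both copies were placed is not stated. Impact, a regulator of translation, scored 128 and 91 and had 5 shared promoter sites. Rasgrf1, a Ras exchange factor, scored 70 and 51, and Zdbf2, a zinc finger gene, 47 and 42. Rasgrf1 and Zdbf2, both with control regions methylated on the paternal copy, were thus at percentiles of 12.9 and 6.31. The strongest shared distal site was intergenic at Mest (92 and 65), Nnat (101 and 73), Zrsr1 (93 and 69) and Zdbf2 (41 and 31), and intronic at Impact (86 and 75) and Rasgrf1 (122 and 97).

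Within 50 kb of the imprinted genes, 938 sites were found, of which 508 (54.2%) were shared, against 55.5% of sites in the genome. By annotation, 119 of the shared sites were promoter sites, 36 exonic, 249 intronic and 104 intergenic. Their density was 9.43 per 100 kb over 5.39 Mb, against 5.91 per 100 kb over the genome, which includes gene deserts. Cluster densities ran from 2.58 at Snrpn-Ube3a and 3.54 at Zdbf2 to 15.3 at Impact, and only those 2 and Dlk1-Dio3 (5.82) were below the genome. Per gene, the imprinted genes had a median of 7.5 shared distal sites within 50 kb (1 to 49), against 8 for all protein-coding genes (quartiles 4 and 13). With replicate 1 alone these medians were 13.5 and 13, and the sites within 50 kb numbered 877.

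**Figure D5:**
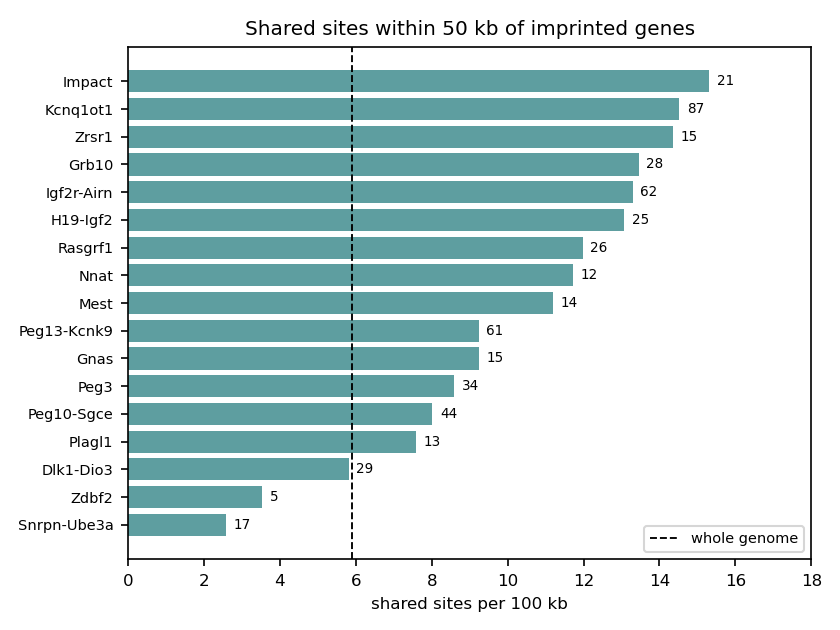
Shared sites per 100 kb within 50 kb of the imprinted genes, by cluster (numbers beside bars count shared sites), with a dashed line at the whole genome (5.91). Snrpn-Ube3a, Zdbf2 and Dlk1-Dio3 lie below the line and 14 clusters above it.

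Between replicates, 35 of 36 imprinted promoters scored higher in replicate 1, as did 98.9% of open protein-coding promoters. The median log2 ratio of replicate 1 over replicate 2 scores was 0.37 for the imprinted genes and 0.24 for all open protein-coding promoters (quartiles 0.16 and 0.37). It ran from −0.11 at H19 to 0.77 at Peg12. The scale of the scores may differ between lists, so the ratio can be read only against other genes. The 2 sets also differ in score, with medians of 100 and 73.5 for the imprinted promoters against 121 and 101. The part of score in the ratio was not tested. Peak centres agreed within 20 bp at the median, and 14 of 36 were identical.

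Genes of the imprinting machinery, a list of 19, all had a shared promoter site, with a median percentile of 61.7, against 68.5% of protein-coding genes with such a site. Zfp57 scored 114 and 101, Ctcf 134 and 112, Yy1 142 and 124, and Uhrf1, which guides the maintenance methyltransferase Dnmt1, 133 and 125. Dppa3, a protector of maternal methylation in the egg, was the weakest at 12 and 19. Of 36 further imprinted genes, 27 had a shared promoter site, a share near that 68.5%, and their median percentile was 32.3. Besides Ins2, Zim2 and Zim3, there was no promoter peak at Th, Rtl1 and Slc22a2, and Calcr (39), Nap1l5 (37) and Gpr1 (32) had a replicate 1 peak only.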

How the data were processed

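Chromatin accessibility was measured by DNase-seq in 2 biological replicates of newborn lung, which form 1 group. The authors deposited, per replicate, 150 bp peaks with a score of no stated unit and hotspots with a −log10 q-value that reaches at most 100. Both use mm10 (GRCm38), according to the authors' deposited notes. No source used here names the aligner, peak caller or depth, so the precision of single scores is unknown. No site ended past a chromosome end (0 cases). Chromosomes 1 to 19, X and Y were used. Peaks overlapping by at least 1 bp were merged, and sites with peaks of both replicates are shared. A gene's promoter site touches the 500 bp on either side of any GENCODE M21 TSS of the gene, and distal sites lie over 1000 bp from every TSS. The strongest site is that with the highest mean rank over both lists. Motifs were searched on both strands of the merged site, with Python 3.11.15, pandas 2.3.3 and numpy 2.4.6. The code for the site calls was run on simulated lists with overlapping peaks planted near a TSS. That run checks the code alone and does not bear on the precision of the real calls. The members, gene lists and motifs were chosen with earlier results of these data known. All 40 genes are named, with the strongest distal site per cluster. Control region positions are textbook knowledge. Sites singled out besides these (in the control regions, around H19, Cdkn1c, Meg3 and Ndn, and with motifs) were chosen after their values were seen. Alternatives covered overlap, score, hotspots, promoter width, TSS choice, distances and each replicate alone. Control windows of 500 bp and motif windows of 150 bp were added after the data were seen.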

Additional observations from a re-analysis of the deposited data

How the results depend on the processing

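No paired analysis was possible because the series holds a single group. The imprinted genes with a shared promoter site numbered 30 to 37 over the alternatives run, against 36 in the values reported, and the protein-coding share was 61.9 to 72.3%. In 28 of 40 genes the site was found under all 11 settings. With only the 5′ end of the gene model, Kcnq1, Mest, Grb10, Plagl1, Snrpn and Mirg lost theirs. With only peaks above the median score, Mirg, Slc22a3, Snrpn and Zdbf2 did. Mirg also lost its site with promoters of 250 bp, with an overlap of at least 50% of the shorter peak, with basic transcripts alone and when the nearest TSS had to be its own. Control regions with a shared peak numbered 14 to 17, against 16. Of 47 alternative values, 41 counted as unchanged, 6 moved and 0 reversed. Unchanged meant within 1.5 times the reported value, or within 1 SD for the log2 ratio. This rule was loose, so the count of unchanged values says little. From 36 of 40 genes or 16 of 18 control regions, a rise of 1.5 times was not possible. The SD, 0.175, is wider than the gap between the imprinted genes (0.366) and all open protein-coding promoters (0.244). The 47 values also include the counts over all protein-coding genes. The log2 ratio was also replaced by the difference of percentile ranks within each list. That value has another scale and was judged by its sign alone. It was the only value that could count as reversed. The sites within 50 kb fell to 295 when peaks at or below the median score were dropped, and were 574 to 877 with either replicate alone, against 508. The median number of distal sites per gene was 8.5 to 13.5 with either replicate alone, 2.5 within 10 kb and 15 within 100 kb, against 7.5, and the same median over all protein-coding genes was 9 to 13, 2 and 15. TGCCGC was found in 18 of 34 control region sites in 500 bp windows and in 11 in 150 bp windows. Depth is unknown, so a gene without a peak is one where none was called, and whether it is closed was not tested.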
